A study of Mus musculus with 24 samples.

Results

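Total RNA polymerase II (Pol II) was mapped by chromatin immunoprecipitation and sequencing (ChIP-seq) in mouse macrophages carrying a hairpin against Wdr82 or a scrambled hairpin. These are 4 of the 24 samples of the series, taken because their labels name the antibody as total Pol II, and they hold 105080 of its 756484 peaks. The cells were bone marrow-derived macrophages (BMDM), grown from bone marrow of FVB/Hsd mice and studied on day 7 of differentiation. All were infected with a retroviral vector and selected with puromycin, so the control cells also went through infection and selection. The knockdown vector is labelled shWdr82 and its hairpin sh1137, and the control vector is labelled scrambled. An empty vector, labelled LMP, was the control for H3K4me3 and H3K27ac, whose LPS libraries are titled 4 h, and it enters here through those marks alone. Cells of each vector were studied with no treatment or with 10 ng/ml of lipopolysaccharide (LPS), a component of bacterial outer membranes to which macrophages respond. The titles of the LPS libraries give 45 min, while the treatment text of the labels speaks of 4 h, and 45 min is used as the name here. The 4 groups are therefore shWdr82 untreated, scrambled untreated, shWdr82 LPS and scrambled LPS, with 1 library in each.

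The model has limits that the labels set. A single hairpin was used, the number of mice behind the cultures is not given in the sources used here, and the level of Wdr82 cannot be read from peak lists. The macrophage identity of the cells was likewise not checked, because the gene table at hand uses another genome build than the peaks and no gene was assigned to a position. The antibody was Santa Cruz sc-899. In such bulk cultures, fewer cells with Pol II at a place and less Pol II per cell cannot be told apart.

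Pol II starts at promoters, pauses shortly after the start, elongates through the gene body and is released beyond its end. Trimethylation of lysine 4 of histone H3 (H3K4me3) marks promoters, its monomethylation (H3K4me1) away from promoters marks enhancers, and H3K36me3 is laid down over the bodies of transcribed units. WDR82 is a subunit of the SET1 complexes that methylate H3K4 and of a PNUTS phosphatase complex, which is known for a part in ending transcription. The series title speaks of early termination that holds back transcription of cis-regulatory elements, so the question for total Pol II is where its peaks differed between the vectors: at promoters, at enhancers, inside transcribed units or outside all of these.

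Every total Pol II peak was placed in the first of 4 classes that it touched by at least 1 bp. The first was an H3K4me3 peak of the empty vector untreated library (18951 peaks). The second was a distal H3K4me1 peak, which is an H3K4me1 peak of the scrambled untreated library at least 2500 bp from any of those H3K4me3 peaks (41813 peaks). The third was an H3K36me3 peak of the scrambled untreated library (37166 peaks). Peaks on none of these are called unmarked. All 3 class lists came from control cells, which can place peaks of control cells in a marked class more readily than those of knockdown cells. They also came from untreated cells, so a place that gained a mark with LPS can count as unmarked in the LPS lists.

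The untreated total Pol II lists held 28497 peaks (shWdr82) and 32385 peaks (scrambled), and the LPS lists held 22307 and 21891. Their median widths lay between 2200 and 2382 bp, and the part of peaks with a score of at least 100 lay between 69.7% and 71.2%. A score here is the authors' own value per peak and ran from 50 to 3233.06 over the 4 lists. The lists carry no read counts, so the sequencing depth is unknown. Since each group is 1 library, replicate error could not be measured, no test was possible, and no difference given here has a replicate check. The 95% intervals are exact binomial (Clopper-Pearson) intervals for shares and order-statistic intervals for medians, and they cover counting error only.

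Unmarked peaks made up more of the total Pol II list in shWdr82 cells after LPS. They were 13.6% (interval 13.1 to 14.0) of peaks in the shWdr82 LPS list and 9.89% (9.50 to 10.3) in the scrambled LPS list. Untreated, the shares were 8.92% (8.60 to 9.26) and 9.18% (8.86 to 9.50), and these intervals overlap. The 3 lists other than shWdr82 LPS thus lay within about a percentage point of each other, and the shWdr82 LPS list stood above them. The unmarked peaks covered 7.17 Mb in shWdr82 LPS and 5.10 Mb in scrambled LPS cells, against 6.26 Mb and 6.53 Mb untreated.

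Peaks inside H3K36me3, over the bodies of transcribed units, showed the opposite order after LPS. Their share was 28.2% in the shWdr82 LPS list and 31.7% in the scrambled LPS list, and 34.7% and 36.6% in the untreated lists. They covered 21.2 Mb and 23.3 Mb after LPS, and 32.2 Mb and 35.2 Mb untreated, so the shWdr82 list was the lower of the pair in both treatments. With both lists cut to equal numbers of top-scoring peaks, the untreated difference in share of -1.85 points turned to 0.811 points. Distal H3K4me1 peaks, the enhancer class, had like shares in all 4 lists, from 17.8% to 18.6%. Their covered length after LPS was nevertheless 22.3 Mb for shWdr82 against 19.5 Mb for scrambled, and the median peak widths of the class were 3401.5 bp and 3036 bp. Peaks on H3K4me3, the promoter class, were 40.2% and 40.3% of the LPS lists and 38.6% and 35.7% of the untreated lists.

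For presence, the peaks of both vectors within a treatment were merged where they overlapped. Each merged region was then held by both lists, by the shWdr82 list only or by the scrambled list only. In untreated cells 33945 regions resulted, of which 4910 (14.5%) were held by shWdr82 only and 7916 (23.3%) by scrambled only. After LPS 25104 regions resulted, of which 5643 (22.5%) were held by shWdr82 only and 4910 (19.6%) by scrambled only. These percentages are the background against which each class is read. With both lists cut to equal numbers of top-scoring peaks the untreated order turned, to 5929 and 5569 regions, while after LPS the counts were 5386 and 5023.

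The promoter class stood apart from the others by how few of its regions differed. In untreated cells 10454 of 11711 H3K4me3 regions were held by both vectors, 399 (3.41%) by shWdr82 only and 858 (7.33%) by scrambled only. After LPS the counts were 8123 of 9425 held by both, 752 (7.98%) by shWdr82 only and 550 (5.84%) by scrambled only. All 4 shares were below their backgrounds. With equal numbers of top-scoring peaks the H3K4me3 counts of shWdr82 only and scrambled only were 512 and 718 untreated, and 722 and 571 after LPS. Of the regions held by scrambled only after LPS, 90.7% had a total Pol II peak in the scrambled untreated list and 82.2% in the shWdr82 untreated list. For those held by shWdr82 only after LPS these shares were 72.2% and 72.9%. Most promoter regions of either group were thus called in untreated cells of both vectors.

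In the distal H3K4me1 class the order of the vectors differed between the treatments. In untreated cells 1062 of 6745 regions (15.7%) were held by shWdr82 only and 1882 (27.9%) by scrambled only. After LPS 1319 of 4854 (27.2%) were held by shWdr82 only and 1039 (21.4%) by scrambled only. With the full lists the order followed that of all regions in each treatment. With both lists cut to equal numbers of top-scoring peaks the untreated distal counts came close, at 1324 and 1381. Those after LPS were then 1283 and 1067. When the regions were split by H3K36me3 and by H3K27ac of empty vector untreated cells, a mark of active enhancers and promoters, the excess after LPS lay mostly off H3K36me3. There, with H3K27ac, 475 regions were held by shWdr82 only and 294 by scrambled only, and without H3K27ac 316 and 165. On H3K36me3 the counts were 262 and 243 with H3K27ac, and 266 and 337 without it. In untreated cells the scrambled count was the higher in all 4 of these subsets.

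Inside H3K36me3 the scrambled count was the higher in both treatments with the full lists. Of 12309 untreated regions, 2637 (21.4%) were held by shWdr82 only and 4049 (32.9%) by scrambled only. Of 7530 regions after LPS the counts were 1852 (24.6%) and 2608 (34.6%). With the same number of peaks the untreated order turned, to 3156 and 2732, and after LPS the counts were 1748 and 2656. After LPS the scrambled-only share exceeds its background of 19.6%, while the shWdr82-only share is near its background of 22.5%.

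The unmarked class had the largest part of regions held by shWdr82 only of the 4 classes after LPS. Of its 3295 regions, 1720 (52.2%, 50.5 to 53.9) were held by shWdr82 only, 713 (21.6%, 20.2 to 23.1) by scrambled only and 862 by both. The background for shWdr82-only regions was 22.5%. In untreated cells 812 of 3180 unmarked regions (25.5%) were held by shWdr82 only and 1127 (35.4%) by scrambled only. When the lists were cut to the same number of top-scoring peaks, the untreated counts turned to 937 and 738, while those after LPS were 1633 and 729. The untreated order in this class thus turned with the length of the lists, and the order after LPS did not.

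**Figure D1:**
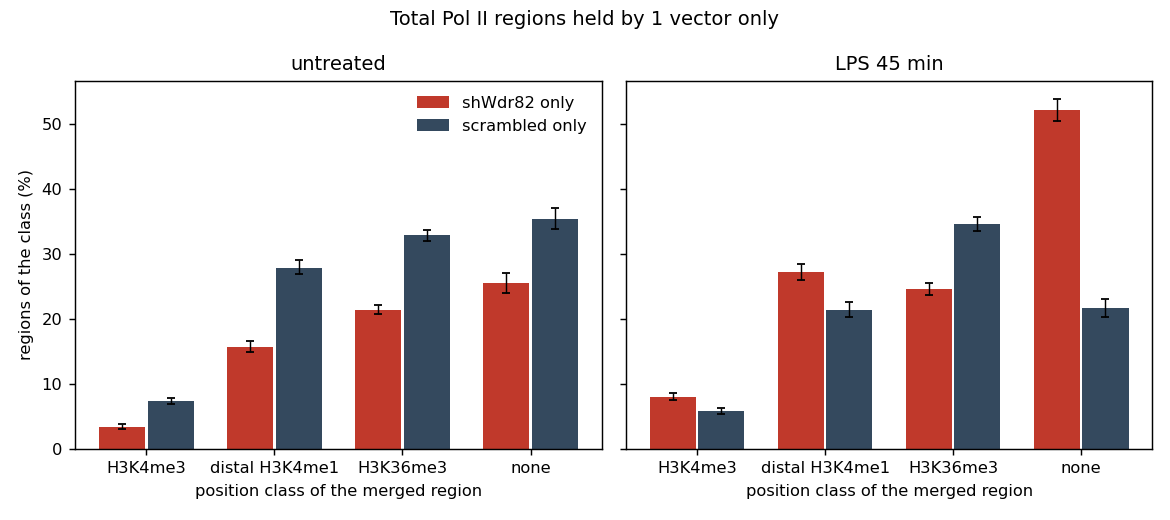
Bars give the share (%) of merged total Pol II regions in each position class that were held by the shWdr82 list only (red) or the scrambled list only (dark), untreated on the left and after LPS on the right, with exact 95% binomial intervals for counting error. After LPS the unmarked class, labelled none, has 52.2% of its regions in shWdr82 only and 21.6% in scrambled only.

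The shWdr82-only unmarked regions after LPS lay farther from H3K36me3 than the other unmarked regions did. Their median width was 1492 bp, close to the 1485 bp of scrambled-only regions, and 656 (38.1%) had a score of at least 100, against 202 (28.3%) of the scrambled-only regions and 713 (82.7%) of those held by both. The median distance to the nearest total Pol II peak of the scrambled LPS list was 5957.5 bp, against 6183 bp for shWdr82-only regions of all classes. The median distance to the nearest control H3K36me3 peak was 12103 bp, against 4522 bp for the scrambled-only regions and 5177 bp for the shared ones. The median distance to distal H3K4me1 was 9643.5 bp, against 10295 bp and 12248 bp for those groups, so they were not farther from enhancer marks. Of the 1720 regions, 18.2% had a total Pol II peak in the shWdr82 untreated list and 14.6% in the scrambled untreated list, so most were called in LPS-treated cells alone.

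Merging all 4 total Pol II lists gave 37496 regions, 10803 of them held by every list. Both shWdr82 lists alone held 371 (0.989%) and both scrambled lists alone held 484 (1.29%). By class, the shWdr82 pair alone held 55 regions on H3K4me3, 93 on distal H3K4me1, 149 inside H3K36me3 and 74 unmarked ones. The scrambled pair alone held 50, 125, 253 and 56 in the same order. The unmarked class was thus 1.57% shWdr82 alone, the highest such share of the 4 classes, and 1.19% scrambled alone, below its background of 1.29%. The regions seen in the shWdr82 LPS list and no other were far more numerous there: 1343 of 4709 unmarked regions (28.5%), against 375 (7.96%) in the scrambled LPS list and no other. Over all regions these patterns made up 8.46% and 4.69%. These 1343 regions rest on 1 library, shWdr82 LPS.

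Pol II phosphorylated at serine 2 of its repeats (Ser2P), the elongating form, was mapped with a separate antibody in a further 4 libraries of the same design. It served as a readout that the choice of total Pol II regions did not use. At the 1720 unmarked shWdr82-only regions after LPS, a Ser2P peak was present at 53.8% (51.4 to 56.2) in the shWdr82 LPS list and at 25.2% (23.1 to 27.3) in the scrambled LPS list. Of these regions 532 had Ser2P in the shWdr82 list alone and 39 in the scrambled list alone. At unmarked regions held by both total Pol II lists, the Ser2P shares were 54.6% and 52.2%, and at scrambled-only regions 34.6% and 35.6%. The Ser2P lists therefore differed where total Pol II differed in favour of shWdr82, and their intervals overlapped at the other unmarked regions.

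The Ser2P lists themselves were unequal after LPS, covering 60.6 Mb (shWdr82) and 44.7 Mb (scrambled), and the part of that difference in these shares was not tested. Distal H3K4me1 regions gave the same order at a lower level. At shWdr82-only regions after LPS, Ser2P was present at 26.1% (23.7 to 28.5) in shWdr82 and 11.9% (10.2 to 13.8) in scrambled cells, with 212 regions in the former list alone and 25 in the latter. At shared distal regions the shares were 33.5% and 27.7%, and at scrambled-only regions 18.7% and 17.2%. Inside H3K36me3 they were 22.7% and 17.1% at shWdr82-only regions and 20.2% and 23.96% at scrambled-only regions. On H3K4me3 they were 19.1% and 16.2% at shWdr82-only regions, with overlapping intervals.

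In untreated cells the Ser2P shares differed less. At unmarked shWdr82-only regions they were 39.0% (35.7 to 42.5) in shWdr82 and 32.1% (28.9 to 35.5) in scrambled cells. At unmarked scrambled-only regions they were 25.5% and 32.1%, so each vector had the higher share at its own regions. At shared unmarked regions the shares were 50.2% and 50.5%. At distal shWdr82-only regions they were 11.2% and 9.51%, with overlapping intervals.

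**Figure D2:**
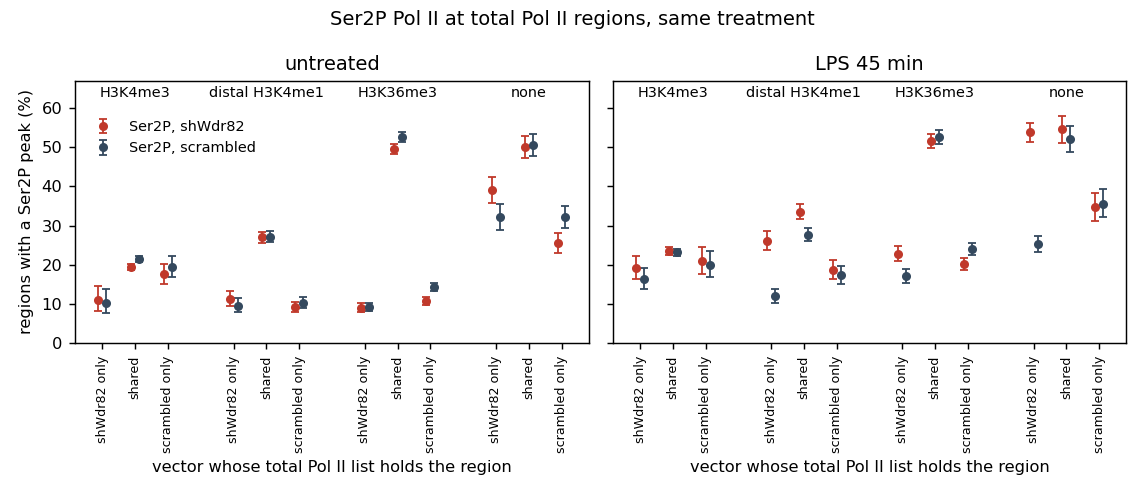
Points give the share (%) of total Pol II regions with a Ser2P peak in the shWdr82 list (red) or the scrambled list (dark) of the same treatment, by position class and by the vector that held the total Pol II region, with exact 95% binomial intervals. After LPS the 2 shares part most at unmarked shWdr82-only regions, labelled none, where they are 53.8% and 25.2%.

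H3K36me3, the mark of transcribed bodies, was also more often called in the knockdown at the unmarked regions of the shWdr82 LPS list. A peak was present at 13.6% (12.0 to 15.3) of the 1720 regions in the shWdr82 LPS list of H3K36me3 and at 6.86% (5.71 to 8.16) in the scrambled LPS list. At unmarked scrambled-only regions the shares were 21.7% and 17.5%, and at shared ones 19.6% and 15.9%, so the shWdr82 share was the higher in all 3 groups. The class was drawn by the lack of H3K36me3 in scrambled untreated cells, which holds down the scrambled shares. At the 1720 regions H3K4me1 was present at 13.5% (12.0 to 15.3) in the shWdr82 LPS list and 10.2% (8.84 to 11.8) in the scrambled LPS list. At unmarked scrambled-only regions the H3K4me1 shares were 12.8% and 13.5%. The class also lacks distal H3K4me1 of scrambled untreated cells by definition. At the 1720 regions H3K27ac was present at 15.4% in shWdr82 and 16.6% in empty vector cells after LPS, with overlapping intervals. Those H3K27ac libraries are the ones titled 4 h.

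Neighbouring unmarked regions of the same list were joined into runs where they lay less than 10000 bp apart. In the shWdr82 LPS list 697 of 1720 shWdr82-only regions (40.5%) lay in runs of 2 or more, and 323 (18.8%) in runs of 3 or more. For scrambled-only regions after LPS these were 183 of 713 (25.7%) and 83 (11.6%). In untreated cells 20.7% of shWdr82-only and 25.1% of scrambled-only regions lay in runs of 2 or more. A larger number of regions by itself brings neighbours closer, and the part of that in the 40.5% was not tested.

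The runs with the most regions show what such places look like, and they were chosen after the values were seen. At chromosome 4, 141434274 to 141466035 (mm9), 8 total Pol II regions followed each other over 31762 bp in the shWdr82 LPS list, with scores from 80.41 to 671.3. No total Pol II peak was called there in any of the other 3 lists. Ser2P had 10 peaks there in shWdr82 LPS, 2 in scrambled LPS, 3 in shWdr82 untreated and 0 in scrambled untreated cells. The nearest control H3K4me3 peak was 2583 bp away and the nearest control H3K36me3 peak 4131 bp.

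A run at chromosome 12, 8557025 to 8579449, held 7 regions over 22425 bp in the shWdr82 LPS list and no total Pol II peak in any other list. Ser2P had 3 peaks there in shWdr82 LPS and 0 in scrambled LPS cells, and 0 and 1 untreated. A run at chromosome 6, 17268882 to 17290033, likewise held 7 regions, with scores from 63.33 to 98.28, and Ser2P had 3 peaks in shWdr82 LPS and 1 in scrambled LPS cells, and 1 and 0 untreated. The run at chromosome 13, 6573964 to 6605087, also had 8 regions, but untreated cells had total Pol II peaks there in both vectors, 4 in shWdr82 and 3 in scrambled. Ser2P there had 2 peaks in shWdr82 LPS and 1 in scrambled LPS cells, and 1 and 2 untreated, so its order differed between the treatments.

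Runs of like length were also found in the control lists. In scrambled untreated cells 8 regions lay at chromosome 9, 67748748 to 67782796, and in scrambled LPS cells 7 lay at chromosome 13, 76791422 to 76812640. Neither of these had a Ser2P peak in any of the 4 Ser2P lists. All 4 named LPS runs of shWdr82 had Ser2P peaks in the shWdr82 LPS list, from 2 to 10 of them. Untreated shWdr82 runs held fewer regions. Among those ranked highest, of 5, 4, 4 and 4 regions, the shWdr82 untreated list had 1, 0, 0 and 0 Ser2P peaks.

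Directions of transcription were read from the marks, since no gene annotation of the same build was at hand. H3K36me3 domains with H3K4me3 near exactly 1 end gave 1892 far ends, beyond which Pol II that had passed the marked body would be found. H3K4me3 peaks with H3K36me3 on exactly 1 side gave 3422 upstream edges, beyond which lies the side away from the marked body. Peaks carry no strand, so the direction of Pol II outside either kind of edge, and the unit it belongs to, cannot be read. The 20 kb outside each edge held neither mark in control untreated cells. A peak lying wholly there was therefore of the unmarked or distal H3K4me1 class by construction. The edge counts thus overlap with the counts of those classes and are no separate evidence.

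Past the far ends, total Pol II was more frequent in shWdr82 cells after LPS. At 5 to 6 kb past the end, 8.19% (7.00 to 9.52) of the 1892 sites had a total Pol II peak in shWdr82 LPS and 6.13% (5.09 to 7.31) in scrambled LPS cells. Of these sites 69 had it in the shWdr82 list alone and 30 in the scrambled list alone. At 10 to 11 kb the shares were 4.70% and 3.07%, with 42 and 11 sites in 1 list alone. The intervals of the vectors overlapped at both of these distances, and they were separate only from 6 to 10 kb past the end. These intervals take no account of both lists being scored at the same sites. At 3 to 4 kb 108 sites had a peak in the shWdr82 list alone and 57 in the scrambled list alone. At 12 to 13 kb these counts were 40 and 13. Inside the domain the order was the opposite: in the last kb before the end the shares were 34.9% and 40.3%. The profiles crossed between 1 and 3 kb past the end.

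In untreated cells the intervals overlapped in every bin beyond 3 kb. The shares at 5 to 6 kb were 7.35% in shWdr82 and 7.03% in scrambled cells, and at 10 to 11 kb 3.17% and 3.86%. In the last kb before the end they were 58.2% and 65.0%. The lower shares of shWdr82 inside the end of H3K36me3 were thus present in both treatments. After LPS its shares were higher in every bin from 2 to 20 kb beyond the end, with separate intervals from 6 to 10 kb. In untreated cells they were slightly higher from 3 to 8 kb and lower from 8 to 20 kb.

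Upstream of promoters the difference after LPS was larger in relative terms, and the intervals were separate in every bin from 1 to 20 kb. The ratio of the shares showed no steady fall with distance, at 1.83 from 3 to 4 kb and 1.89 from 17 to 18 kb. No share was computed for unmarked ground away from edges, so the difference cannot be tied to promoters. At 5 to 6 kb upstream, 4.38% (3.72 to 5.12) of the 3422 sites had a total Pol II peak in shWdr82 LPS and 2.57% (2.07 to 3.16) in scrambled LPS cells, with 79 and 17 sites in 1 list alone. At 10 to 11 kb the shares were 3.48% and 1.99%, and at 19 to 20 kb 3.74% and 2.34%. In the first kb outside the edge the order was the opposite, with 41.8% and 46.8%. Untreated shares at 5 to 6 kb were 3.48% and 3.33%, and at 10 to 11 kb 2.13% and 2.25%.

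Over the whole 20 kb outside the edges after LPS, total Pol II covered a mean of 1467 bp past the far ends in shWdr82 and 1219 bp in scrambled cells. More was covered in shWdr82 at 533 sites, in scrambled cells at 350, and 1009 were equal. Upstream of promoters the means were 857 bp and 559 bp. The sites with more in shWdr82 numbered 935 there and those with more in scrambled cells 949. These counts include the first kb outside the edge, where 380 sites had a peak in the scrambled list alone and 207 in the shWdr82 list alone. Untreated means were 1675 bp and 1731 bp past the ends, and 751 bp and 720 bp upstream. Untreated sites with more in shWdr82 numbered 768 past the ends and 1424 upstream. Those with more in scrambled cells numbered 625 and 1275.

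From 2 to 20 kb outward, Ser2P gave the same order as total Pol II after LPS at both kinds of edge. The Ser2P lists themselves covered 60.6 Mb (shWdr82) and 44.7 Mb (scrambled) after LPS. Over the 20 kb past the far ends Ser2P covered means of 2752 bp and 2024 bp, a ratio of 1.36. Upstream of promoters the means were 823 bp and 334 bp, a ratio of 2.46. The part of the unequal lists in these differences was not tested. Nearer the edge the orders could differ. In the first kb upstream the Ser2P shares were 8.39% in shWdr82 and 6.22% in scrambled cells, the reverse of total Pol II. At 1 to 2 kb past the far ends they were 49.5% and 47.1%, against 27.4% and 27.9% for total Pol II. At 5 to 6 kb past the far ends a Ser2P peak was present at 19.9% (18.1 to 21.8) of sites in shWdr82 and 13.3% (11.8 to 14.9) in scrambled cells. Upstream of promoters the shares were 5.64% (4.89 to 6.47) and 2.22% (1.75 to 2.77). In untreated cells they were 13.1% and 12.2% past the ends, and 2.63% and 2.25% upstream. At 1 to 2 kb upstream the untreated Ser2P shares were lower in shWdr82, at 2.86% and 4.03%, with 36 and 76 sites in 1 list alone. Farther out the untreated Ser2P shares also differed, with shWdr82 the higher at 9 to 10 kb. At 9 to 10 kb upstream they were 1.93% (1.49 to 2.45) and 0.906% (0.616 to 1.28), with 48 and 13 sites in 1 list alone. At 9 to 10 kb past the ends they were 4.33% (3.46 to 5.35) and 2.91% (2.20 to 3.77), with 47 and 20 and with overlapping intervals.

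**Figure D3:**
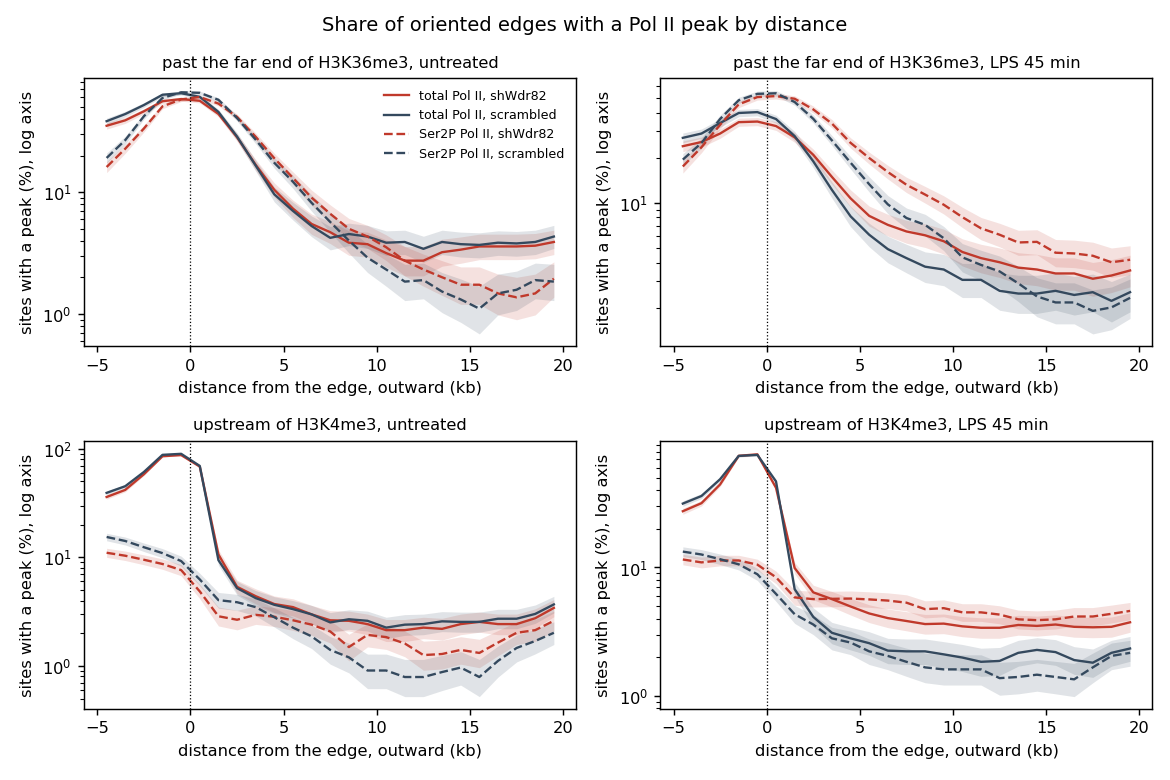
Lines give the share (%, log axis, with a range of its own in each panel) of oriented edges with a total Pol II peak (solid) or a Ser2P peak (dashed) by distance outward from the edge in kb, shWdr82 in red and scrambled in dark, with bands for exact 95% binomial intervals. After LPS the shWdr82 lines lie above the scrambled lines beyond 3 kb at both kinds of edge, while the total Pol II bands of untreated cells overlap there.

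Widths were compared for total Pol II peaks that overlapped 1 to 1 between the vectors, as the log2 ratio of the shWdr82 width over the scrambled width. Over all 17429 untreated pairs the median ratio was 0.04, and 756 (4.34%) were at least 2-fold wider and 454 (2.6%) at least 2-fold narrower in shWdr82. Over all 11844 pairs after LPS the median was -0.03, with 600 (5.07%) wider and 588 (4.96%) narrower by that measure. Among all pairs, therefore, the vectors differed little in width.

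Distal H3K4me1 peaks were wider in shWdr82 cells in both treatments. The median log2 ratio was 0.10 (0.08 to 0.12) over 3010 untreated pairs and 0.14 (0.11 to 0.17) over 1851 pairs after LPS, and 63.6% and 63.3% of the pairs were wider in shWdr82. At least 2-fold wider were 220 untreated pairs (7.31%) and 226 after LPS (12.2%), against 89 (2.96%) and 102 (5.51%) at least 2-fold narrower. Unmarked peaks gave like values after LPS, with a median of 0.14 (0.10 to 0.18) over 704 pairs, 85 of them (12.1%) at least 2-fold wider and 22 at least 2-fold narrower. That median was 0.0338 when only peaks wholly inside H3K36me3 counted as inside it, and 0.0879 with class lists of shWdr82 cells, while the distal median was 0.31 with H3K36me3 placed first. In untreated cells their median was 0.07 (0.04 to 0.09) over 1053 pairs.

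Peaks on the marked promoters and bodies had medians nearer 0 or below it. On H3K4me3 the median was 0.03 untreated and -0.07 after LPS, where 39.3% of 7111 pairs were wider in shWdr82. Inside H3K36me3 it was 0.03 untreated and -0.03 after LPS, with 134 pairs at least 2-fold wider and 249 at least 2-fold narrower. The promoter peaks with H3K36me3 on exactly 1 side give the edges separately. After LPS the upstream edge in shWdr82 lay at a median of -26 bp outward of the scrambled edge and the downstream edge at -59 bp, over 2131 peaks. In untreated cells these were 20 bp and 8.5 bp over 2534 peaks.

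**Figure D4:**
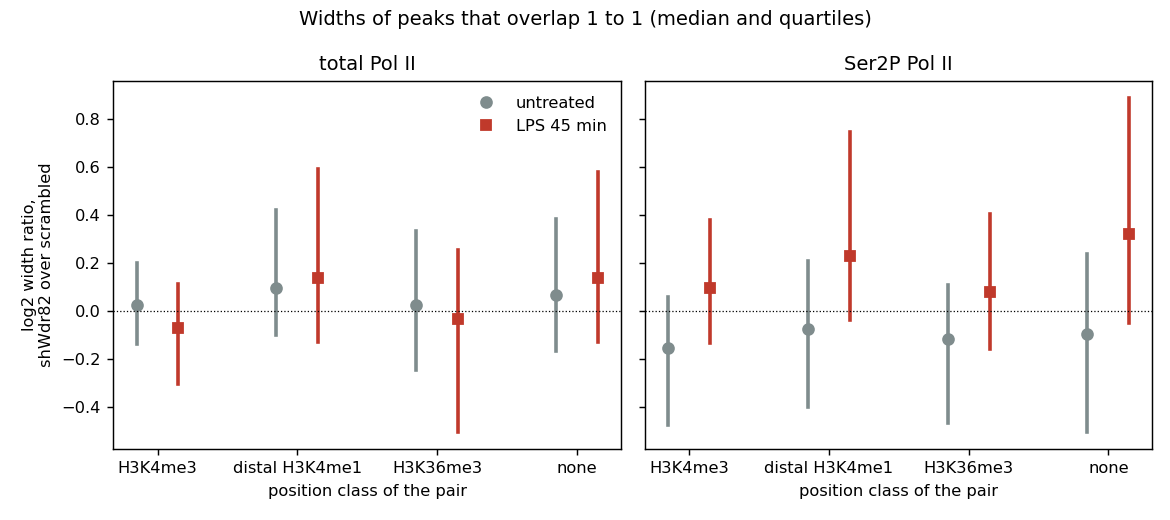
Points give the median and lines the quartiles of the log2 width ratio, shWdr82 over scrambled, of peaks that overlapped 1 to 1, by position class, for total Pol II on the left and Ser2P on the right, untreated in grey circles and LPS in red squares. The total Pol II medians after LPS are 0.14 for the distal H3K4me1 and unmarked (none) classes and below 0 for the H3K4me3 and H3K36me3 classes.

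Ser2P widths differed from those of total Pol II in untreated cells. There the Ser2P medians were below 0 in every class, from -0.16 on H3K4me3 to -0.08 on distal H3K4me1. After LPS they were above 0 in every class, and the highest were 0.32 for unmarked and 0.23 for distal H3K4me1 peaks.

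Regions with exactly 1 total Pol II peak in each of the 4 lists allow the width to be followed in both treatments. Over all 6870 of them, 24.8% were wider in shWdr82 in both treatments and 28.9% narrower in both. Of 617 such regions on distal H3K4me1, 278 (45.1%) were wider in shWdr82 in both treatments and 113 (18.3%) narrower in both. Of 160 unmarked regions 59 (36.9%) were wider and 25 (15.6%) narrower. On H3K4me3 the order was the opposite, with 1196 of 5471 (21.9%) wider and 1675 (30.6%) narrower, and inside H3K36me3 the counts were 169 and 171 of 622 (27.2% and 27.5%), near the shares over all regions.

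The distal region ranked first for width lay at chromosome 12, 8524037 to 8537729. Its total Pol II peak measured 13312 bp (shWdr82) and 4718 bp (scrambled) untreated, and 13693 bp and 2813 bp after LPS. The fold was 2.82 untreated and 4.87 after LPS. This distal region had H3K27ac, H3K4me1 and H3K36me3 peaks in all 4 lists of each. The run of 7 unmarked regions on chromosome 12 described above starts farther along, at 8557025. The region ranked next, at chromosome 11, 83424150 to 83433158, measured 3593 bp and 964 bp untreated, and 8998 bp and 3455 bp after LPS, with Ser2P in both LPS lists.

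On H3K4me3 the largest ratio kept in both treatments was at chromosome 5, 124477294 to 124482854, where the peak measured 5532 bp (shWdr82) and 1919 bp (scrambled) untreated, and 5471 bp and 2041 bp after LPS. The reverse was found at chromosome 2, 69217444 to 69222336, with 1696 bp and 4893 bp untreated, and 1227 bp and 3828 bp after LPS. Inside H3K36me3 the region at chromosome 6, 83250194 to 83255600, measured 1223 bp and 5223 bp untreated, and 1173 bp and 5313 bp after LPS. In each of these places the vectors kept their order in both treatments, which is how the regions were ranked.

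Among regions held by both shWdr82 lists and neither scrambled list, the first-ranked unmarked one lay at chromosome 10, 51256339 to 51261809. It was 5471 bp wide, with scores of 1059.45 untreated and 1707.15 after LPS, and the nearest scrambled total Pol II peak was 5046 bp away. Ser2P and H3K36me3 were called there in both shWdr82 lists and in scrambled LPS cells. The second unmarked region, at chromosome 10, 60041836 to 60056874, was 15039 bp wide and scored 618.04 and 3113.19. H3K36me3 was called there in both shWdr82 lists and in neither scrambled list, of which the untreated one is without it by the definition of the class. The same held for H3K36me3 at the third, at chromosome 1, 73955005 to 73959099, which lay 38487 bp from any scrambled total Pol II peak and had Ser2P in all 4 lists.

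On distal H3K4me1 the first-ranked region of the shWdr82 pair was 11461 bp wide, at chromosome 13, 98358124 to 98369584. Its scores were 2026.29 untreated and 716.91 after LPS, and the nearest scrambled peak was 26453 bp away. H3K36me3 was again called in both shWdr82 lists and in neither scrambled list, and Ser2P in both shWdr82 lists and in scrambled untreated cells. On H3K4me3 the first-ranked region, at chromosome 15, 58761282 to 58778673, had a score of 3100 in both lists but lay only 113 bp from a scrambled peak. The second, at chromosome 18, 67549579 to 67570963, scored 2209.15 and 2059.44 at a distance of 36855 bp, with Ser2P and H3K36me3 in all 4 lists. The third, at chromosome 19, 46130250 to 46133247, scored 1703.92 and 2155.91 at a distance of 9266 bp. It had H3K4me3, H3K27ac and H3K4me1 in all 4 lists and no Ser2P in any.

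The scrambled pair alone also held regions with high scores. An unmarked one at chromosome 14, 47976891 to 47983010, scored 3100 untreated and 2229.15 after LPS, and the nearest shWdr82 total Pol II peak was 7819 bp away. Ser2P was called there in both shWdr82 lists and in neither scrambled list, the reverse of total Pol II, and a neighbouring region at chromosome 14, 47969389 to 47972833, showed the same. H3K36me3 at that neighbour was called in both shWdr82 lists and in neither scrambled list, as at some of the shWdr82 regions above. The H3K4me3 region at chromosome 11, 118005799 to 118013485, scored 2697.22 and 1285.46 at 15617 bp from any shWdr82 peak. The distal region at chromosome 16, 25007824 to 25015047, scored 550.24 and 887.14 at 12423 bp, with no Ser2P in any list and H3K27ac in all 4. Inside H3K36me3 the region at chromosome 11, 51794574 to 51804976, scored 794.64 and 2047.32 at 11273 bp, and it had Ser2P in all 4 lists.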

How the data were processed

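Peaks were called by the authors, 1 list per library; Bowtie 0.12.7, MACS 1.4 and the mm9 build are named, per the submitters' processing notes. The sources used here give no input library, depth or filter. The deposited score of each peak is the authors' own value and served only to rank or filter within a list, and the other deposited values used are the authors' peak starts and ends. Widths and overlaps of at least 1 bp were computed with Python 3.11.15, NumPy 2.4.6 and SciPy 1.17.1, by code tested on simulated data. Positions are on mm9, counted from 1.

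Far ends came from H3K36me3 peaks joined where less than 3000 bp apart into domains of at least 5000 bp, with H3K4me3 within 5000 bp of exactly 1 end. Upstream edges came from H3K4me3 peaks with H3K36me3 within 5000 bp on exactly 1 side. Named regions were, per class and direction, the 3 held by both lists of 1 vector alone with the highest lower score, and the 2 with exactly 1 peak in each list and the largest smaller log2 width ratio. Alternatives covered the score, list length, overlap, broken peaks and class definitions, and 2 (classes drawn on all 4 lists of each mark, edges drawn on shWdr82 lists) were chosen after seeing the data. The members and lists were chosen with earlier results of these data known.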

Additional observations from a re-analysis of the deposited data

Results flagged for a closer look

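Several differences of shWdr82 minus scrambled had opposite signs in the 2 treatments, and with 1 library per group none of these changes of sign was tested. The number of total Pol II peaks differed by 416 after LPS and -3888 untreated, and the covered length by 5.03 Mb and -5.83 Mb. The share of unmarked peaks differed by 3.70 percentage points after LPS and -0.253 untreated, and that of H3K4me3 peaks by -0.129 and 2.93 points. The median log2 width ratio was -0.0268 after LPS and 0.0376 untreated over all pairs, -0.0689 and 0.0272 on H3K4me3, and -0.0319 and 0.0273 inside H3K36me3.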

How the results depend on the processing

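Of the values recomputed under each alternative, 249 counted as alike in direction and size, 53 moved and 14 changed sign. Alike does not mean equal. The 249 include untreated shWdr82-only regions, at 4910 in the full lists and 3357 with peaks under 1000 bp apart joined. They also include unmarked shWdr82-only regions after LPS, at 1720 and at 1237 with classes from all 4 lists of each mark. Some class definitions leave the counts of another class as they are by construction. After LPS, shWdr82-only regions outnumbered scrambled-only ones under each alternative that altered a count: 8 for unmarked, 8 for distal H3K4me1 and 6 for H3K4me3 regions. Inside H3K36me3 the reverse held under all 9. In untreated cells the same number of top-scoring peaks turned the order of unmarked regions, of those inside H3K36me3 and of all regions together, and no other alternative did.

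With a score of at least 100, regions of shWdr82 only and scrambled only numbered 2748 and 4924 untreated (unmarked 379 and 538) and 3677 and 2995 after LPS (unmarked 843 and 326). The unmarked share then differed by 2.42 points after LPS, those of H3K4me3 and distal H3K4me1 by 0.308 and 0.0373, and the distal median log2 width ratio was 0.21. With peaks under 1000 bp apart joined, shWdr82-only regions after LPS numbered 3577. Unmarked counts were then 536 and 706 untreated and 924 and 431 after LPS, the LPS shares of unmarked and H3K4me3 peaks differed by 2.53 and 0.485 points, and the medians were 0.0319 over all untreated pairs and 0.19 for distal pairs after LPS. With the same number of peaks, untreated unmarked regions of scrambled only numbered 738, and the untreated shares of unmarked, H3K4me3 and H3K36me3 peaks differed by 0.653, -0.958 and 0.811 points, all opposite in sign to the values from the full lists. After LPS those of H3K4me3 and distal H3K4me1 differed by 0.393 and 0.0228.

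With classes from the shWdr82 untreated lists, the unmarked share differed by -0.720 points untreated and 2.80 after LPS, the LPS shares of H3K4me3 and distal H3K4me1 by 0.0209 and 0.265, and the unmarked LPS median was 0.0879. With H3K36me3 placed before distal H3K4me1, the distal medians were 0.128 untreated and 0.31 after LPS, and the distal LPS share differed by 0.429 points. It differed by 0.162 with distal set at 5000 bp. Where only peaks wholly inside H3K36me3 counted as inside it, scrambled-only unmarked regions numbered 1879 untreated and 1309 after LPS, the LPS share differed by 2.72 points, and the unmarked medians were 0.0216 untreated and 0.0338 after LPS. With classes from all 4 lists of each mark, an alternative chosen after seeing the data, unmarked counts of shWdr82 only and scrambled only were 460 and 697 untreated, the scrambled-only count after LPS was 440, and the LPS shares of unmarked and distal peaks differed by 2.79 and 0.621 points. With edges drawn on shWdr82 lists, also chosen after seeing the data, the upstream difference at 5 to 6 kb was -0.0313 points untreated, against 0.146, and 1.25 after LPS, against 1.81. The cause of these shifts was not tested.

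No paired analysis was possible because the labels carry no replicate numbers and each group has 1 library. Leaving out a library was not possible for the same reason. Depth is unknown, so a place without a peak is one not called, and its signal is unknown. With list length made equal, unmarked regions after LPS were 1633 and 729, and with class lists of shWdr82 cells 1646 and 836.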
